A study of Caenorhabditis elegans with 8 samples.

Results

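The transcriptome described here is that of Caenorhabditis elegans late embryos whose LIN-52 protein carried a tag and was otherwise unaltered. The 4 samples of this strain, out of 8 in the series, were chosen by their sample titles and by no measured value. In all 4 samples, WT replicates 1 to 4, the lin-52 gene carried a GFP and 3xFLAG tag at its own locus, lin-52(bn139[lin-52::GFP::3xFLAG]), so no sample came from animals with untagged LIN-52. The other 4 samples came from a strain in which residues of the same tagged protein are replaced, and they are not analysed here. The label WT is therefore the study's name for a tagged strain. Animals were grown from the first larval stage in liquid culture on HB101 bacteria for 72 h at 20 °C, embryos were freed by bleaching and were kept for at most 3.5 h before they were frozen in TRIzol. RNA came from whole embryos, so every level is a sum over all cells of many animals. Libraries were made from poly(A)-selected RNA with a kit that keeps strand. The submitters describe the 4 samples as biological replicates, and no label says whether they came from separate cultures or days.

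In the second part of embryogenesis the worm stops dividing most of its cells, elongates, and builds its tissues and its first cuticle, the collagen coat that the larva wears at hatching. Body muscle, pharynx, intestine, epidermis and neurons make their specialised proteins in this period, while the messages that the mother loaded into the egg have largely been degraded. LIN-52 is a subunit of DREAM, a complex of a pocket protein (LIN-35), the E2F factor EFL-1 with its partner DPL-1, and the proteins of MuvB, which represses cell cycle and germline genes in somatic cells.

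The deposited gene counts summed to between 14667743 and 68040557 per sample. Ribosomal RNA genes took 0.720% to 3.24% of them and were left out, which left 44258068, 54596119, 67399249 and 14495676 counts in replicates 1 to 4. Levels of a gene are compared between samples in counts scaled to 1000000 remaining counts per sample (CPM), and genes are ordered by CPM only as shares of the counts. Statements that one gene was above or below another rest on levels per exonic length on a scale of the same sum (TPM), because a long gene collects more counts than a short one at the same number of molecules. The lowest count read as a signal was 3, which equals 0.0678, 0.0549, 0.0445 and 0.207 CPM in replicates 1 to 4. Replicate 1 stood apart from the others in several measures. Its share of read pairs aligned to more than 1 place was 3.97%, against 1.82% to 2.01% in the others, and its ribosomal RNA share was the highest of the 4. Correlations of ranks, and the summaries of spread between samples, are given with and without it. Which sample was highest or lowest for a gene is stated on the CPM scale. Another scaling, the trimmed mean of M-values (TMM), sets the bulk of genes equal between samples. It moved the median gene by 0.63, -0.23, -0.78 and 0.38 on the log2 scale in replicates 1 to 4. With TMM the highest sample stayed the same for 67.96% of the genes named here that had counts, and the lowest for 51.5%.

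Between them, a small number of genes supplied most of the message. The 10 highest genes of each sample held 15.4%, 12.7%, 10.3% and 15.1% of its counts in replicates 1 to 4. The 100 highest held 56.7%, 52.4%, 44.6% and 59.2%, and the 1000 highest 89.3%, 84.3%, 77.8% and 89.2%. At each of these sizes the share was larger in replicates 1 and 4 than in replicate 2, and smallest in replicate 3. By mean level, 167 genes above 1000 CPM held 62.8% ± 7.14 of the counts (SD, n = 4). Of these, 78 carry a cytosolic ribosomal protein name and 9 encode cuticle collagens. At the other end, 9424 genes with a mean above 0 and up to 1 CPM held 0.184% ± 0.0980 together. Protein-coding genes held 99.6% ± 0.0743 of all counts.

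The gene with the largest share of counts was dpy-17, a cuticle collagen whose loss gives a short, fat (dumpy) worm (chromosome III, 5107330 to 5108492, plus strand, in the WBcel235 build). Its level was 29561, 17039.5, 13699.7 and 20644 CPM in replicates 1 to 4, and its mean was 20236 ± 6833 CPM. Replicate 1 was the highest and replicate 3 the lowest. The other collagen among the first 4 genes was dpy-14 (chromosome I, 6843589 to 6845142, plus strand), with 12793, 17059, 12904 and 14372 CPM. Unlike dpy-17, it was not high in replicate 1 by CPM, and its SD on the log2 scale was 0.19 against 0.47 for dpy-17. By TMM dpy-14 had 19756, 14574, 7540 and 18644, with replicate 1 the highest, so this contrast held on the CPM scale only. The second gene by share was F41F3.3 (chromosome V, 4647769 to 4648239, minus strand), with 33977, 12718, 9545 and 13959.7 CPM. Replicate 1 lay far above the other 3 samples. Its exonic length is 471 bp, and its mean per length, 24354 ± 17286 TPM, was the first of all genes because of replicate 1 alone: by TPM it was in place 1 there and in places 6, 6 and 8 in replicates 2, 3 and 4. Without replicate 1 its mean was 15748 TPM, below rpl-41.2 with 27130 TPM and rps-25 with 25321 TPM.

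**Figure D1:**
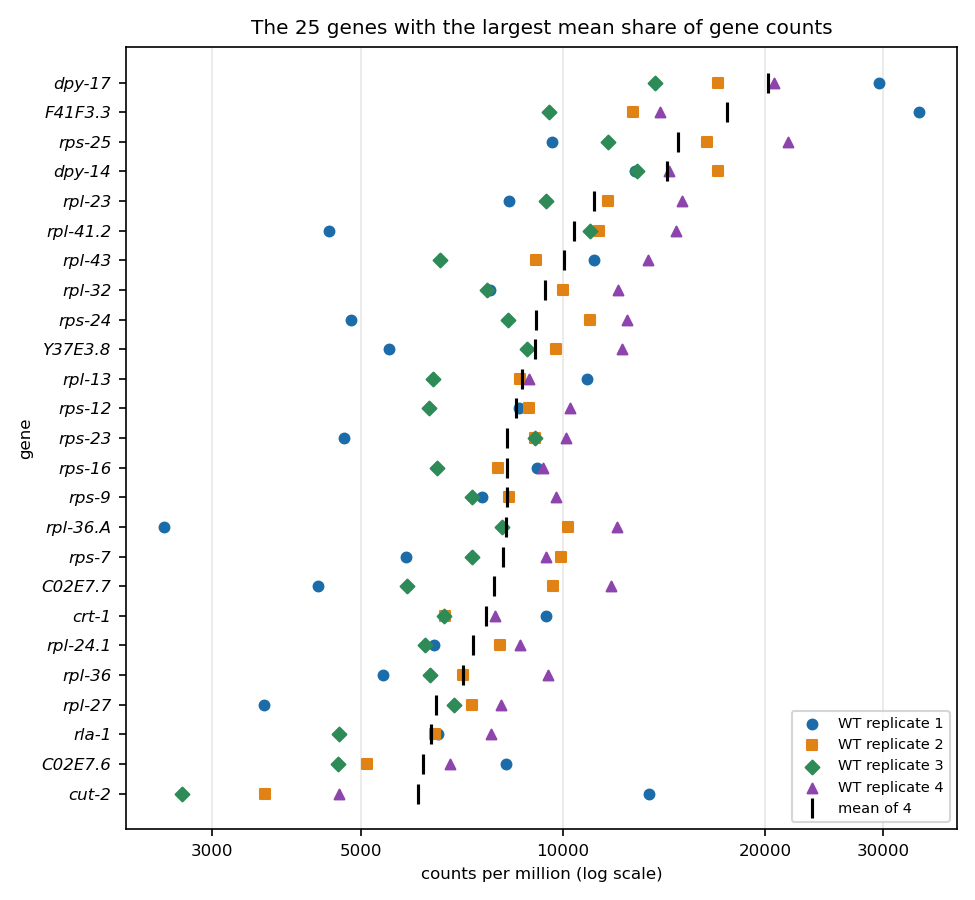
CPM (log axis) of the 25 genes with the largest mean share of counts, one point per WT replicate and a bar for the mean of the 4. Most ribosomal protein genes lie highest in replicate 4, while dpy-17, F41F3.3, crt-1, C02E7.6 and cut-2 lie highest in replicate 1; rpl-36.A and rpl-41.2 lie lowest there.

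Of the 25 genes with the largest shares, 17 carry a cytosolic ribosomal protein name, 2 are collagens, and the rest were F41F3.3, Y37E3.8, C02E7.7, C02E7.6, crt-1 and cut-2. Families were formed by symbol, so a gene known by a sequence name alone, such as Y37E3.8, was not counted as ribosomal, whatever it encodes. Calreticulin, a calcium-binding chaperone of the endoplasmic reticulum where collagens are folded, is the product of crt-1. Its level was 9445, 6684, 6648 and 7921 CPM, with replicate 1 highest. The cuticlin gene cut-2, which encodes an insoluble cuticle component, had 13423, 3599, 2702 and 4645 CPM, so 1 sample set its place among the 25. C02E7.7 and C02E7.6 lie next to each other on chromosome V on opposite strands (4918136 to 4918574 and 4919207 to 4919591). They had 4315, 9651, 5860.5 and 11791 CPM and 8224, 5102, 4626 and 6784 CPM, and replicate 1 was the lowest for the first and the highest for the second. Ordering by TPM in place of CPM kept 20 of the 25 genes and 91 of the 100 highest. The 5 highest mean levels per length were those of F41F3.3, rps-25, rpl-41.2, rpl-43 and C02E7.7, all with an exonic length under 500 bp. Without replicate 1 the first 4 were rpl-41.2, rps-25, rpl-43 and C02E7.7.

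Cytosolic ribosomal proteins form the body of the ribosome and are needed in equal numbers. The family holds 82 genes found by symbol, so any member known by a sequence name alone is left out. These 82 genes took 33.2, 36.8, 31.5 and 41.9% of the counts in replicates 1 to 4, a mean of 35.8% ± 4.61 (SD, n = 4). Replicate 4 was the highest and replicate 3 the lowest. Per length their share was 47.3% of all TPM, and 68 of the 100 genes with the largest shares of counts belonged to them. The largest share of counts was that of rps-25 (chromosome IV, 5947093 to 5947605, minus strand), with 9621, 16403, 11667 and 21685 CPM and 23173 ± 6434 TPM. Next by share came rpl-23 with 8298, 11675, 9434 and 15051 CPM, and rpl-41.2, which encodes a very small protein, with 4484, 11312, 10980.4 and 14748 CPM. All 3 were highest in replicate 4, and replicate 1 was the lowest.

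The counts of a pair of ribosomal protein genes were very low. The gene rpl-42 had 0, 0.0549, 0.0445 and 0 CPM, no more than 3 counts in any sample, and rpl-37 had 10.2, 25.1, 59.1 and 26.9 CPM and 70.2 ± 50.4 TPM, against 13772 ± 2493 TPM for rpl-23. Read pairs that aligned to more than 1 place were not counted to any gene, so genes with near-identical copies are undercounted by an amount that the files do not give. The remaining 81 genes other than rpl-42 all reached 1 CPM in every sample, as did 43.8% of all protein-coding genes. Their median SD of log2 levels between samples was 0.32 by CPM, against 0.65 for the 8771 genes that reached 1 CPM in all 4 samples. Without replicate 1 the medians were 0.18 and 0.54. With TMM scaling the order was the reverse, 0.77 for the ribosomal genes and 0.47 for all, and 79 of the 81 were lowest in replicate 3, against 29.04% of all genes. For rps-18 the levels were 4293, 4222, 4054 and 4285 CPM, for rpl-16 3275, 3130.5, 3053 and 3277 CPM, and for rps-11 3199.8, 3409.8, 3561 and 3430.5 CPM, each within a narrow band on this scale. By TMM the band was lost, with rps-18 at 6630.1, 3607, 2369 and 5559 and rpl-16 at 5058, 2674, 1784 and 4251. On the CPM scale rpl-36.A had 2542, 10182, 8123 and 12048 CPM, with replicate 1 far below the other 3.

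The difference between replicate 1 and the others within this family went with gene length. In the 35 ribosomal protein genes with exons under 500 bp, the median level in replicate 1 was lower than the mean of the others by a log2 difference of -0.33. In the 46 longer ones it was higher by 0.20. Across the 81 genes, the Spearman correlation of that difference with exonic length was 0.62, a description over genes that share the same 4 libraries. Across the 110 cuticle collagen genes at 1 CPM or more in every sample, all with exons of 500 bp or more, it was 0.070. Their median difference was 0.71, and 85 of the 110 were higher in replicate 1. Whether gene length itself has a part in the result was not tested.

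Cuticle collagens are secreted by the epidermis to make the larval coat, and many are switched on in short pulses before each moult and before hatching. The 176 collagen genes held 10.9, 6.76, 5.03 and 7.22% of the counts, a mean of 7.47% ± 2.46. Replicate 1 was the highest and replicate 3 the lowest. The 10 highest held 6.41% ± 2.09 between them, and the other 166 held 1.07% ± 0.369. Of all collagen genes, 110 reached 1 CPM in every sample and 1 was at 0 in every sample. In bulk RNA, more epidermal cells and more RNA per epidermal cell cannot be told apart.

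After dpy-17 and dpy-14, large shares belonged to col-74 with 7522, 6176, 4338 and 5544 CPM, col-165 with 9056, 5006, 3605 and 5565 CPM and col-107 with 9251, 3898, 1909 and 5109 CPM. All 3 were highest in replicate 1 and lowest in replicate 3, as was the summed family. The gene sqt-3, whose loss also alters body shape, had 13145, 3287, 3252 and 3751 CPM, with the other 3 samples close together and replicate 1 far above them. Collagens needed for the regular furrows of the cuticle had 451 ± 219 TPM for dpy-7, 227 ± 87.9 TPM for dpy-10 and 460.0 ± 322 TPM for dpy-3. These levels were below the 2376 ± 655 TPM of col-74 and above the median of 4.07 TPM over the 176 collagen genes. In the samples dpy-7 had 1286, 640.4, 559 and 708 CPM, dpy-10 had 811, 494, 503 and 422 CPM and dpy-3 had 1290.1, 415, 354 and 659 CPM. Again replicate 1 was highest for each of the 3.

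Of the 110 collagen genes at 1 CPM or more in every sample, 71 were highest in replicate 1, 14 in replicate 2, 2 in replicate 3 and 23 in replicate 4. For all 8771 genes at that level, 1318 (15.03%) were highest in replicate 1. TMM scaling put 84 of the collagen genes highest in replicate 1, none in replicates 2 and 3, and 46.2% of all genes highest there. Replicate 3 was the lowest for 74 of the collagen genes by CPM, against 3.88% of all genes, and for 106 by TMM, against 29.04%. Among the 23 collagen genes highest in replicate 4, col-140 had 1.94, 8.06, 11.1 and 58.5 CPM and col-20 had 1.38, 3.17, 3.26 and 24.1 CPM. The gene col-19, known as an adult-stage collagen and under 1 CPM in replicate 1, had 0.768, 3.11, 3.86 and 20.97 CPM. These 3 were all far higher in replicate 4 than in the other samples.

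**Figure D2:**
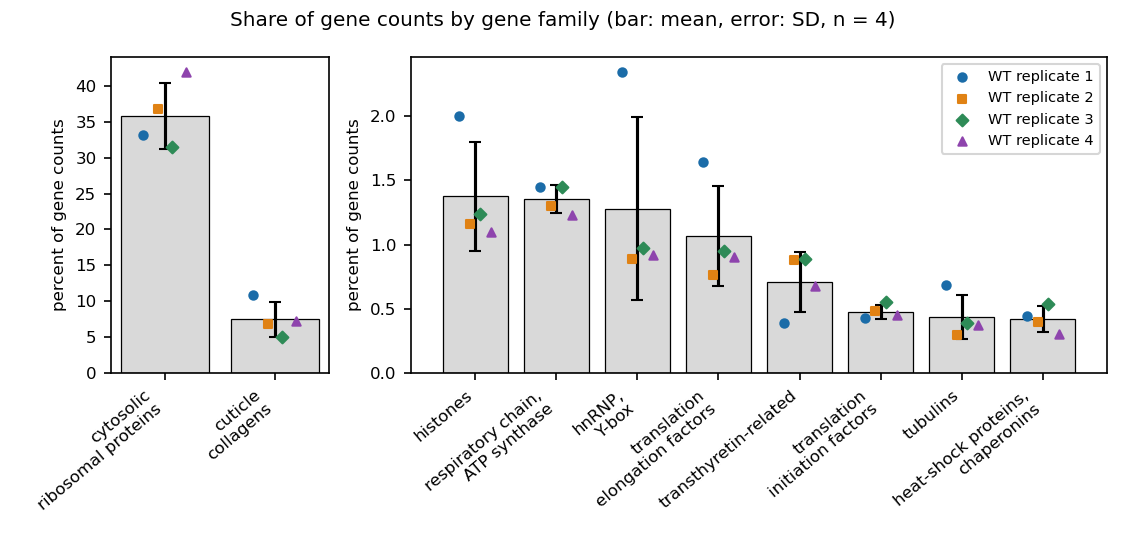
Percent of gene counts held by 10 gene families; bars give the mean of the 4 WT replicates, error bars the SD, and points the replicates, with separate axes for the first 2 families and the other 8. Ribosomal proteins took 31.5% to 41.9% and collagens 5.03% to 10.9%; replicate 1 lies above the others for histones, hnRNP and Y-box proteins, elongation factors and tubulins.

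Elongation factors and initiation factors serve the ribosome in making protein. Elongation factor 1A, which brings aminoacyl-tRNA to the ribosome, is encoded by eef-1A.1, with 9813, 3734, 5124 and 4962 CPM. Elongation factor 2, the translocase eef-2, had 2874, 1564, 1795 and 1648 CPM. Both were highest in replicate 1. The 6 elongation factor genes together took 1.07% ± 0.391 of the counts, and the 34 initiation factor genes 0.477% ± 0.0553. The translationally controlled tumour protein homologue tct-1 had 3342, 5059, 5421 and 4816 CPM, and here replicate 1 was the lowest.

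Chromatin proteins were a second group with large shares. The 84 histone genes took 2.002, 1.16, 1.24 and 1.10%, with replicate 1 above the others. Most of this came from the genes that make polyadenylated messages: the linker histone genes hil-2 with 4176, 2841, 3198 and 2889.8 CPM and his-24 with 6837, 2006, 2158 and 2054 CPM, the histone H3.3 gene his-72 with 3153, 1510.1, 1587 and 1402 CPM, and the H2A.Z gene htz-1 with 1948, 1216, 1448 and 872 CPM. Replicate 1 was highest for all 4 of them, and for his-24 it was far above the others. Of the histone genes, 21 were at 0 in every sample. The messages of replication-dependent histones lack a poly(A) tail, and many of these genes are identical copies, so their counts do not measure the histone message of the embryos.

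RNA-binding proteins of the hnRNP, SR and Y-box kinds (29 genes) took 2.34, 0.885, 0.974 and 0.921%. Replicate 1 lay far above the other 3, which were close together. The Y-box protein gene cey-1 had 3895, 1041, 1146 and 812 CPM and the SR protein gene rsp-6 had 2191, 1058, 959 and 1204 CPM. For energy supply, the 49 nuclear genes of the respiratory chain and ATP synthase took 1.45, 1.30, 1.45 and 1.23%, a mean of 1.36% ± 0.109. The cytochrome oxidase subunit gene cox-5A had the largest share of these, with 2181, 1524, 1343 and 1546 CPM. Genes of the mitochondrial DNA itself summed to 32.2, 191, 394 and 92.2 CPM, and replicate 1 was the lowest. How well poly(A) selection captures these messages was not measured.

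Mitochondrial ribosomal proteins, which serve the organelle's own ribosomes, had another order of samples than the cytosolic ones. Their 69 genes all reached 1 CPM in every sample and summed to 1664, 3751, 4435 and 2733 CPM. Replicate 1 was the lowest, also by TMM, and replicate 3 the highest, in place of which TMM put replicate 4. Of the genes, 53 of the 69 were lowest in replicate 1, against 47.8% of all genes at that level. With TMM scaling 40 of them were lowest there, against 28.5% of all genes. Transthyretin-related proteins, a family of small secreted proteins, took 0.386, 0.877, 0.891 and 0.678%, with the largest share in ttr-50, at 2991, 5948, 5785 and 4749.8 CPM. All 26 members at 1 CPM or more in every sample were lowest in replicate 1 by CPM, and 20 of them by TMM.

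Messages of marker genes were detected for each of the organs examined. The lists were made by hand, and their counts can be read against the 43.8% of protein-coding genes that reached 1 CPM in every sample. The 18 body muscle genes all reached 1 CPM in every sample and summed to 8453, 9021, 8529 and 7174 CPM, with replicate 4 lowest by CPM and replicate 3 by TMM. Muscle contracts when calcium binds troponin C, which is encoded by pat-10. Its level was 1622, 4049, 3678 and 3524 CPM, with replicate 1 lowest. Troponin T, mup-2, went the other way, with 1622, 590.1, 594 and 485 CPM, and so did tropomyosin, lev-11, with 1493, 491, 558 and 419 CPM. For both, replicate 1 lay far above the other 3. The major muscle myosin unc-54 had 597, 173, 215 and 119.1 CPM, paramyosin unc-15 had 243, 74.2, 123 and 46.2 CPM and myosin myo-3 had 106, 106, 172 and 56.6 CPM. Replicate 4 was the lowest for each of them.

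In the epidermis and cell junction list, of 24 genes, 23 reached 1 CPM in every sample. The apical junction gene ajm-1 had the largest share of counts, with 274, 279, 249 and 393 CPM, highest in replicate 4. The apical matrix gene noah-2 had 263, 137, 231 and 96.9 CPM and the leucine-rich repeat matrix gene sym-1 had 198, 109.5, 168 and 80.6 CPM. For these, replicates 1 and 3 were above replicates 2 and 4. The spectraplakin gene vab-10, a long gene that ties epidermis to muscle, had 247, 92.2, 119.6 and 86.2 CPM. Replicate 1 was the highest.

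**Figure D3:**
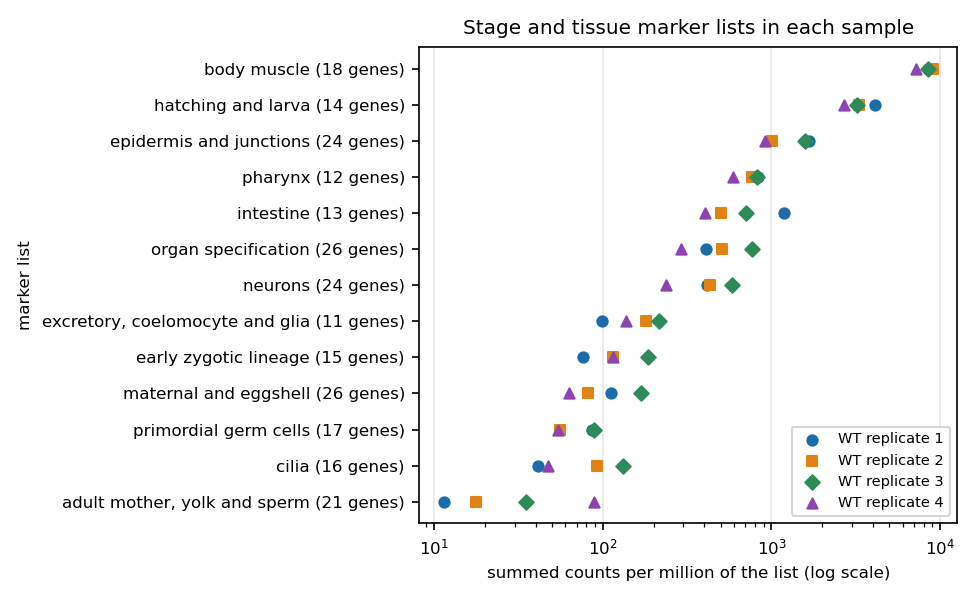
Summed CPM (log axis) of 13 marker lists in the 4 WT replicates. Body muscle genes summed to 7174 to 9021 CPM and the list of adult, yolk and sperm genes to 11.4 to 88.9 CPM, with replicate 4 highest for that list only.

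In the pharynx list, 10 of 12 genes reached 1 CPM in every sample, and the largest shares were those of the pharyngeal troponin genes tnt-4 with 415, 277, 222 and 249 CPM and tni-4 with 118.8, 231, 259.6 and 155 CPM. The pharyngeal myosin myo-2 had 67.1, 16.3, 30.9 and 15.2 CPM. In the intestine list, 8 of 13 (61.5%) did. The aspartyl protease asp-1 had 766, 255, 306 and 247 CPM, with replicate 1 far above the other 3, and the microvillar actin act-5 had 239.7, 81.9, 121 and 67.0 CPM. The gut esterase ges-1, a classic marker of the intestine, had 1.13, 3.24, 4.70 and 0.690 CPM, and per length it was much lower, with 0.907 ± 0.712 TPM against 218 ± 155 TPM for asp-1.

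Of the 24 neuronal genes, 18 reached 1 CPM in every sample, and their median level was 2.26 TPM, against 26.6 TPM for the body muscle genes. Synaptobrevin, snb-1, a protein of synaptic vesicles, had 169, 99.0, 118 and 61.3 CPM. Syntaxin, unc-64, had 12.3, 41.7, 53.7 and 24.2 CPM, and its SNARE partner ric-4 had 8.70, 41.4, 56.5 and 17.5 CPM. Replicate 1 was the highest for snb-1 and the lowest for the other 2. Of genes for transmitter use, the GABA synthesis gene unc-25 had 7.77, 7.88, 13.6 and 2.97 CPM, the choline acetyltransferase cha-1 had 3.64, 4.78, 5.34 and 2.55 CPM and the glutamate transporter eat-4 had 1.11, 1.94, 2.54 and 0.483 CPM. The neuronal gene rgef-1 stayed at 0.158, 0.641, 1.41 and 0.0690 CPM, the last value under the 3-count floor of replicate 4. Cilia genes, used by sensory neurons, summed to 41.3, 92.0, 131 and 47.3 CPM, and 9 of 16 (56.2%) reached 1 CPM in every sample. Replicates 1 and 4 were the lower ones.

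Of 26 transcription factor genes that specify organs, 25 reached 1 CPM in every sample, against 43.8% of protein-coding genes. Their median level was 5.64 TPM, near the 5.78 TPM of the 8771 genes detected at that minimum. The MyoD homologue hlh-1, a muscle factor, had 105, 91.4, 107 and 72.0 CPM, and the labial-type Hox gene ceh-13 had 30.3, 75.04, 93.2 and 44.9 CPM. The intestinal GATA factor elt-2 had 19.8, 12.2, 18.3 and 9.93 CPM, the FoxA factor of the pharynx pha-4 had 17.8, 8.30, 22.7 and 6.14 CPM, and the epidermal GATA factor elt-1 had 19.97, 15.6, 29.2 and 9.59 CPM. On the CPM scale replicate 3 was the highest for 24 of the 25 genes. The same held for 6585 (75.1%) of all 8771 genes, and it depended on the scale. With TMM, replicate 3 was the highest for 4 of the 25 and for 21.7% of all genes. Of the larger homeobox family, 51 of 78 genes reached 1 CPM in every sample, and of the 269 nuclear hormone receptor genes 65 did.

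Genes for hatching and the young larva had a median level of 27.9 TPM. The fatty acid and retinol binding protein gene far-1 had 3004, 2326, 2306 and 1793 CPM, and the hatching protease hch-1, which helps to digest the eggshell, had 233, 118.98, 137 and 114 CPM. Both were highest in replicate 1. The neuropeptide-like gene nlp-24 had 455, 459.9, 334 and 419 CPM. It had the largest share of the 143 neuropeptide and insulin genes, of which 80 reached 1 CPM in every sample.

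The DREAM genes were all detected. For lin-52 itself (chromosome III, 9824083 to 9824750, minus strand) the levels were 9.24, 4.91, 12.3 and 4.001 CPM, with replicates 1 and 3 above replicates 2 and 4. Counts of the gene do not tell tagged from untagged message. The pocket protein gene lin-35 had 3.57, 6.47, 17.2 and 4.21 CPM, and its E2F and DP partners efl-1 and dpl-1 had 29.8, 21.2, 38.5 and 13.6 CPM and 5.74, 5.66, 14.96 and 4.07 CPM. Of the MuvB genes, lin-9 had 1.94, 3.19, 7.997 and 1.03 CPM, lin-37 had 13.7, 27.1, 50.9 and 16.1 CPM and lin-54 had 20.1, 17.4, 33.9 and 15.5 CPM. The histone-binding subunit lin-53, which also serves other chromatin complexes, had the largest share of counts, with 114.7, 114, 209 and 87.9 CPM. Per length the order ran from lin-53 (58.1 ± 26.1 TPM) and lin-37 (18.5 ± 12.3 TPM) to lin-35 (1.58 ± 1.34 TPM) and lin-9 (1.01 ± 0.908 TPM). Replicate 3 was the highest of the 4 samples for all 8 genes by CPM, as for 75.1% of all genes, and for 3 of them by TMM, where it was for 21.7% of all genes.

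Of 10 genes often used to normalise expression, 7 had an SD under the median of all genes by CPM and 3 by TMM. Without replicate 1 the numbers were 7 by CPM and 6 by TMM. The spread of some depended on the scale or on replicate 1. The RNA polymerase II subunit ama-1 had 63.8, 13.2, 24.5 and 15.3 CPM, an SD of 0.99 on the log2 scale, larger than that of 87.0% of genes. With TMM scaling its SD was 1.37, larger than that of 99.3%, and without replicate 1 it was 0.44 by CPM. For pmp-3, a peroxisomal transporter, the levels were 4.70, 4.87, 13.8 and 1.52 CPM and the SD was 1.05, 0.74 with TMM and 1.28 by CPM without replicate 1. The cell cycle kinase cdk-1 depended on the scale. It had 48.8, 93.0, 138 and 63.1 CPM with an SD of 0.65, and its SD was 0.050 with TMM, with 0.228% of genes below it. The alpha-tubulin gene tba-1 did the reverse, with 1904, 928, 1088 and 1236 CPM, an SD of 0.44 by CPM and 1.01 by TMM. Over the 8771 genes, the median SD was 0.65 by CPM and 0.47 by TMM. Without replicate 1 it was 0.54 by CPM and 0.28 by TMM.

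Much of the gene set was silent. Of 46728 gene identifiers, 26276 (56.2%) had no count in any sample, most of them from the 15363 piRNA genes, of which 15280 were at 0. Their products are too short to be captured in a library of this kind. Of 19641 protein-coding genes, 2043 (10.4%) were at 0 in every sample, and 8600 (43.8%) reached 1 CPM in every sample. Fewer than 3 counts in each sample were found for 3296, those at 0 included. The number of genes at 1 CPM or more was 9302, 11196, 12028 and 9878 in replicates 1 to 4. Replicate 3 alone brought 765 genes over this level, replicate 1 alone kept 978 from it and replicate 4 alone 367. These numbers are on the CPM scale. There replicate 3 was the highest for 75.1% of the 8771 genes at this level in every sample, against 21.7% by TMM.

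Chemoreceptors, the large receptor families of sensory neurons, made up the largest silent family among the protein-coding ones grouped here. Of 1310 genes, 712 were at 0 in every sample, 34.9% of all protein-coding genes at 0, while chemoreceptors are 6.67% of protein-coding genes. Their counts summed to 19.5, 64.9, 94.6 and 33.4 CPM. A single member, srr-4, reached 1 CPM in every sample, with 5.20, 17.97, 24.5 and 8.83 CPM. Major sperm proteins, made in spermatogenesis, summed to 1.31, 1.65, 2.28 and 2.35 CPM over 31 genes, and none reached 1 CPM in every sample. Read pairs aligned to more than 1 place were not counted, so these sums are too low where members are near-identical. The longest protein-coding genes with no count were ZC178.2, spc-2 and lmd-4, with exonic lengths of 7914, 6822 and 6120 bp. The upper limit that a count of 0 allows is the 3-count floor of each sample.

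Yolk protein genes, which the adult intestine expresses, were lowest in replicate 1. The 6 genes summed to 2.06, 8.33, 23.96 and 63.7 CPM. The gene vit-6, with the largest share, had 0.429, 2.31, 6.37 and 19.7 CPM and 0.854 ± 0.979 TPM, and vit-2 had 0.407, 0.971, 2.83 and 10.8 CPM. Replicate 4 was the highest and replicate 1 the lowest, and TMM gave the same order for the sum. The eggshell genes perm-2 with 0.452, 0.201, 0.682 and 1.31 CPM and perm-4 with 0.0904, 0.165, 0.386 and 1.31 CPM, were also highest in replicate 4, as was col-19 above. Of the whole adult, yolk and sperm list, 1 of 21 gene identifiers reached 1 CPM in every sample (rol-6) and 2 were at 0 in each. The part of adult tissue in these values was not tested.

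Messages that mothers load into the egg had a median level of 0.815 TPM over the list, near the 0.706 TPM of all protein-coding genes. The 26 maternal and eggshell genes summed to 112.002, 81.5, 169 and 63.1 CPM. Of them, 19 (73.1%) reached 1 CPM in every sample, above the 43.8% of all protein-coding genes. The katanin gene mei-1, which acts in the meiotic spindle, had 26.0, 20.3, 40.1 and 17.04 CPM, the RNA-binding protein gene mex-3 had 18.3, 4.38, 8.96 and 2.97 CPM, and oma-2, which acts in the oocyte, had 0.904, 0.696, 1.78 and 0.828 CPM. Of the factors that act in the first zygotic divisions, med-1 and med-2 were at 0 in every sample. Read pairs aligned to more than 1 place were not counted, so a 0 for genes with near-identical copies does not show absence. The endoderm factors end-1 and end-3 had 1.36, 5.38, 9.38 and 3.86 CPM and 0.678, 2.53, 3.46 and 3.86 CPM. The homeobox gene ceh-51 was higher per length than end-1, 56.97 ± 7.96 TPM against 4.25 ± 3.02 TPM, with 53.1, 67.5, 73.3 and 87.4 CPM in the samples, and 5 of 15 genes of this list reached 1 CPM in every sample. The embryo holds a single pair of primordial germ cells, and the 17 genes of their list had a median of 0.689 TPM. The Vasa-type helicase glh-1 had 18.2, 11.04, 16.8 and 10.3 CPM and the P granule gene pgl-1 had 23.3, 8.96, 9.44 and 11.04 CPM.

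Chromosomes did not share counts equally. Chromosome I held 24.8% ± 1.27, and the X chromosome held 7.20, 5.83, 6.61 and 5.03% in replicates 1 to 4. Of the 19641 protein-coding genes, 2826 lie on chromosome I and 2663 on the X chromosome. Replicate 1 had the largest X share and replicate 4 the smallest. The share of protein-coding genes at 1 CPM or more in every sample was 44.6% on the X chromosome, near the 43.8% over all chromosomes, 55.8% on chromosome I and 28.01% on chromosome V. The median level of these detected genes was 4.04 TPM on the X chromosome, the lowest of the nuclear chromosomes, 6.54 TPM on chromosome I and 5.64 TPM on chromosome V.

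Ranks of genes were stable between replicates 2, 3 and 4, and less so against replicate 1. Over the 8771 genes at 1 CPM or more in every sample, the Spearman correlation of levels was 0.972 between replicates 2 and 3, 0.963 between 2 and 4, and 0.920 between 3 and 4. Against replicate 1 it was 0.823 with replicate 2, 0.824 with replicate 3 and 0.850 with replicate 4. These correlations run across genes and describe the samples only.

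**Figure D4:**
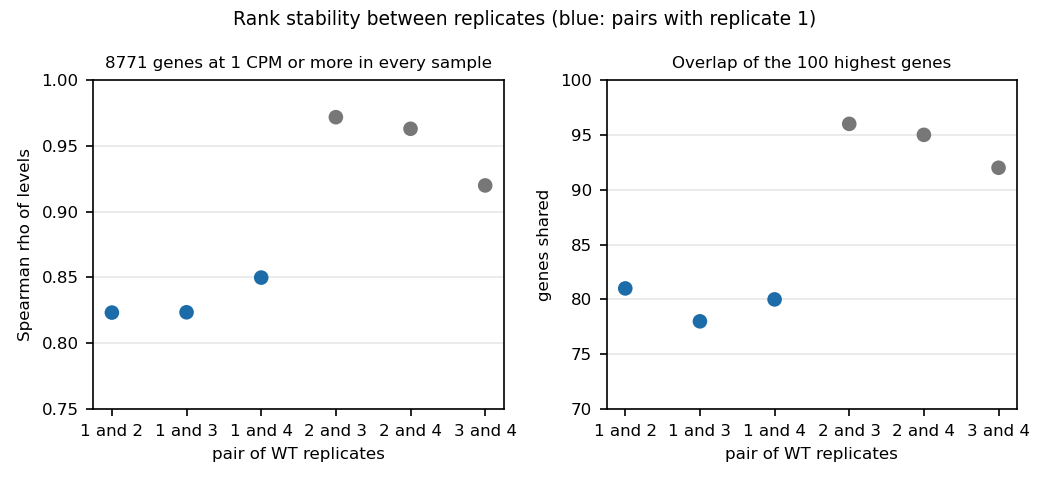
Spearman correlation of levels over 8771 genes (left) and number of genes shared among the 100 highest (right) for each pair of WT replicates; blue points are pairs with replicate 1, and the axes do not start at 0. The pairs with replicate 1 lie at 0.823 to 0.850 and 78 to 81 genes, the others at 0.920 to 0.972 and 92 to 96 genes.

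The same split was seen at the top of the list. Of the 100 highest genes, 76 were shared by all 4 samples and 92 by replicates 2, 3 and 4. Of the 10 highest, 4 were shared by all and 7 by those 3. Of the 1000 highest, 690 and 855 were shared. The median gene moved over 1360.5 ranks between its highest and lowest sample, 15.5% of the genes ranked. Replicate 1 lay farthest from the median rank in 58.9% of the genes, replicate 2 in 5.52%, replicate 3 in 17.6% and replicate 4 in 17.99%. Within families, the Spearman correlation in pairs with replicate 1 was 0.877 to 0.949 for collagens and 0.636 to 0.669 for ribosomal proteins. In the other pairs it was 0.948 to 0.991 and 0.936 to 0.980.

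Taken over genes of all families, length moved with these differences. Within the 110 collagen genes, the correlation for replicate 1 was only 0.070. After each sample's median was removed, genes with exons up to 500 bp deviated in replicate 1 by a median of -0.36 on the log2 scale, and genes over 4000 bp by 0.45. In replicate 4 the direction was the opposite, 0.57 for the short genes and -0.21 for the long ones. Replicate 3 deviated by -0.36 in the short genes and by 0.03 in the long ones. Across genes, the Spearman correlation of the deviation with length was 0.379, -0.436, 0.160 and -0.532 in replicates 1 to 4. The part of gene length in the rank differences was not tested.

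**Figure D5:**
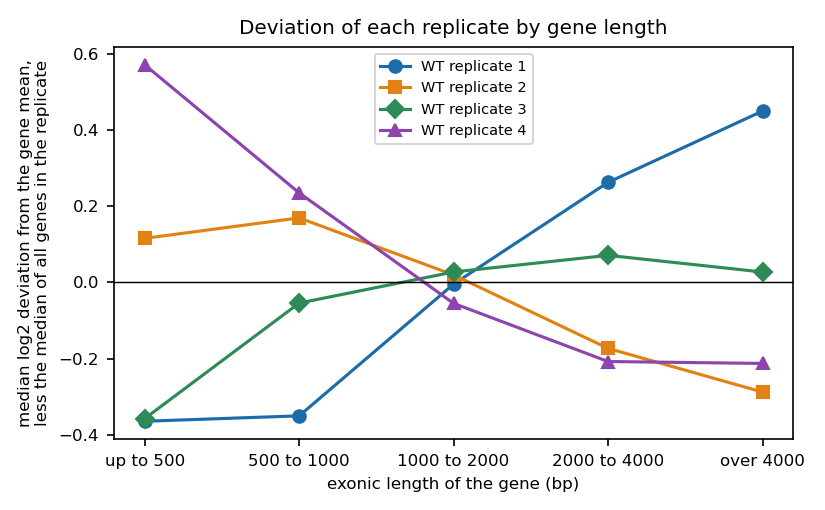
Median log2 deviation of each WT replicate from the mean level of the gene, less the replicate's own median over all genes, in 5 classes of exonic length (bp). Replicate 1 rises from -0.36 to 0.45 with length, and replicate 4 falls from 0.57 to -0.21.

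Among genes averaging 10 CPM or more, the 15 with the largest spread were all lowest in replicate 1, and 14 of them had exons under 1000 bp. Among all genes at that level 50.2% were lowest in replicate 1 and 35.7% had exons under 1000 bp, as had 12 of the 15 steadiest genes. The subunit that RNA polymerases I and III share, rpac-19, had 12.1, 205, 212 and 137 CPM. The saposin-like protein gene spp-13 had 1.72, 32.6, 44.9 and 12.9 CPM and the ubiquitin-like gene ubl-5 had 3.34, 38.2, 69.5 and 28.5 CPM. In these 3 the other samples were several times above replicate 1. For the largest spread, in rpac-19, the SD on the log2 scale was 1.92. Over these 15 genes the SD was 1.70 to 1.92, and 0.31 to 1.46 without replicate 1. The median SD of genes averaging 10 CPM or more was 0.66, and 0.50 without replicate 1, where 11 of the 15 were above it. The 15 steadiest genes had SDs from 0.021 to 0.081, and 0.019 to 0.080 without replicate 1. Both sets were chosen by the SD over the same 4 samples, so their extreme values follow from the choice. The exosome subunit exos-1 was the first, with 96.5, 95.4, 93.2 and 95.1 CPM, followed by the mitochondrial ribosomal gene mrps-16 with 48.2, 49.6, 47.6 and 49.9 CPM and the calcium channel subunit ccb-1 with 38.1, 37.2, 35.9 and 37.8 CPM. The glutathione reductase gsr-1 had 145, 150.3, 165 and 151 CPM. Of the 15 steadiest, 5 were cytosolic ribosomal protein genes. The steadiness did not hold with TMM, where their SDs were 0.55 to 0.70, all 15 above the median of 0.52 of genes at that level.

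The spread over all genes was also put as a biological coefficient of variation, the replicate-to-replicate variation left after counting error. After TMM scaling it was 0.440 over 11964 genes, and 0.290 without replicate 1. Without any one of the other replicates it was 0.457 to 0.492. With all 4 replicates and scaling by library size alone it was 0.578. By level and after TMM scaling, its median per gene was 0.424 at 1 to 10 CPM, 0.409 at 10 to 100 CPM and 0.518 above 1000 CPM. The order by level depended on the scale. By CPM the median SD of log2 levels was 0.66, 0.69 and 0.41 for genes with mean levels in these ranges. Counting error of a large share was small: for the ribosomal proteins, the 95% Wilson interval reached at most 0.0254 percentage points to either side. That interval covers counting error only and is not on the scale of the coefficient of variation. It does not apply to single genes, whose relative counting error is larger at low counts.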

How the data were processed

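For each sample the authors deposited raw counts, a whole number of read pairs for each of 46748 gene identifiers and 5 closing counters. The submitters' processing notes name fastp, STAR, HTSeq, DESeq2 and the WBcel235 build, without versions. Read pairs aligned to several places or overlapping genes are in counters of their own. The 4 WT tables were used. Counters and 20 ribosomal RNA genes were dropped and each sample was scaled to 1000000 counts (CPM). Symbols matched 43673 of 46728 identifiers, and positions, biotypes and exonic lengths came from Ensembl release 115 (46429 matched). TPM divides counts by exonic length before scaling. Log2 values used a pseudocount of 1 CPM. Depth was 14667743 to 68040557 counts per sample.

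Python 3.11.15, pandas 2.3.3 and scipy 1.17.1 gave levels and ranks. In R 4.3.3, edgeR 4.0.16 gave TMM factors and the coefficient of variation (genes kept by a minimum count of 10), and DESeq2 1.42.0 gave size factors. On simulated counts with a coefficient of 0.4, edgeR recovered 0.396. There is no contrast between groups and so no test.

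Families were formed by symbol patterns, corrected after the files were read, and marker lists by hand. The members and lists were chosen with earlier results of these data known. Genes named are drawn from the 25 with the largest mean CPM, the 10 highest per length, the first of each family, the 15 most and 15 least variable at 10 CPM or more, the DREAM and reference genes, each list's 3 highest and any at 0, and the 5 longest silent genes. Other members of these lists and families were named after their values were seen. Alternatives were another scaling, minimum, floor, pseudocount or set of ranked genes, ribosomal RNA kept, mitochondrial genes dropped, and each replicate left out.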

Additional observations from a re-analysis of the deposited data

Results flagged for a closer look

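Values of the text in which 1 replicate lay far from the other 3, given the range of all 4, are listed here without an explanation. Of the values examined, 15 of 173 stood apart in this way, and 11 of those found were in replicate 1. The rule would set apart about 1 in 20 groups of independent, normally distributed values. The values here come from the same 4 samples, and many genes were chosen by level or spread. That rate is therefore no measure of chance for them, and no excess over chance is claimed.

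Replicate 1 was the highest for several genes and a pair of families named above, and the range of the other 3 follows each value. The cuticle collagen sqt-3 had 13145 CPM (3252 to 3751 in the others). The linker histone his-24 had 6837 CPM (2006 to 2158) and the histone H3.3 gene his-72 had 3153 CPM (1402 to 1587). The Y-box protein gene cey-1 had 3895 CPM (812 to 1146). Troponin T, mup-2, had 1622 CPM (485 to 594), and tropomyosin, lev-11, had 1493 CPM (419 to 558). The aspartyl protease asp-1 had 766 CPM (247 to 306), and the P granule gene pgl-1 had 23.3 CPM (8.96 to 11.04). The histone family summed to 20021 CPM (10968 to 12411), and the hnRNP, SR and Y-box family to 23443 CPM (8854 to 9736). The share of read pairs aligned to more than 1 place was 3.97% (1.82% to 2.01%).

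Replicate 4 was the highest for 3 collagens. For col-140 its level was 58.5 CPM (1.94 to 11.1), for col-19 it was 20.97 CPM (0.768 to 3.86), and for col-20 it was 24.1 CPM (1.38 to 3.26). Replicate 3 was the highest for the DP gene dpl-1, with 14.96 CPM (4.07 to 5.74). Causes were not tested.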

How the results depend on the processing

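No paired analysis was possible because no result compares groups or comes from a test. Of 165 values recomputed for the main results, 155 moved by less than the spread between replicates (for counts and spreads, by less than 1.5 times). Some of the 155 could not move. Scaling by TMM or DESeq2 factors cancels in shares of counts, and it leaves genes at 0 and at the count floor unchanged. The other 10 came from 3 settings. Per exonic length (TPM), the 10 highest genes held 18.6% and the 100 highest 65.1%, ribosomal proteins 47.3%, collagens 4.35% and the X chromosome 4.87%, and the body muscle and maternal lists summed to 5321 and 41.18 TPM. With ribosomal RNA kept, protein-coding genes held 98.1%. Leaving out each replicate gave a coefficient of variation from 0.290 to 0.492 and a median Spearman correlation of pairs from 0.835 to 0.961, against 0.440 and 0.885 with all 4. Without replicate 1 the values were 0.290 and 0.961. Of the mean CPM values of the 25 highest genes, 17 of 225 moved by more than the spread. The limits are those of 4 samples with no record of batch or culture. Replicate 4 had the fewest counts, so its 3-count floor was the highest, 0.207 CPM, and levels under it were not read as a signal. Scaling changes which sample is highest for many genes, and near-identical genes are undercounted.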
